A study of Homo sapiens with 12 samples.

Results

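The transcripts described are those of the heterogeneous nuclear ribonucleoprotein (hnRNP) and RNA-binding motif (RBM) families, taken as all genes whose symbol in the platform's gene table starts with HNRNP or with RBM and a digit, RBM3 excepted. By that rule 65 symbols belonged to the set, out of 18132 genes on the array that had a probe set (a group of oligonucleotide probes read out as 1 value) carrying exactly 1 symbol. Of the 65, 59 had such a probe set, and each gene was represented by the one with the highest mean over the 12 arrays. A filter on dim probe sets (a mean at or above log2 4.48, the 30th percentile) left 13909 genes to test, 50 of them members: 19 HNRNP and 31 RBM genes. The members are linked by name and by RNA-binding domains, not by 1 pathway.

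The hnRNP proteins coat nascent transcripts in the nucleus and help decide which exons are kept, when a messenger RNA leaves the nucleus and how long it lasts. RBM is a naming series for proteins with an RNA recognition motif, and its members range from core parts of the spliceosome to factors in ribosome assembly, nuclear RNA decay and m6A methylation. In macrophages several of these proteins are known to act on cytokine transcripts through AU-rich elements or through the splicing of inflammatory genes.

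All cells were THP-1, an established line from a human monocytic leukaemia, which becomes macrophage-like under the phorbol ester PMA. The arrays, PrimeView chips, form 4 groups of 3. In the temperature experiment, cells given 100 ng/ml PMA for 48 hours were kept at 37 °C or moved to 40 °C. The protocol gives harvests after 2, 8 and 24 hours at 40 °C and does not say which of them the arrays hold. In the other experiment the groups are labelled control (titled wild type) and siThermomir, called the thermomiR inhibitor group here. Its protocol describes PMA-differentiated cells at 40 °C that were nucleofected with a hairpin inhibitor of miR-142, miR-143 or ThermoMIR-1, or with a non-human control, together with a plasmid for GFP, by which the cells were sorted after 24 hours. The labels do not name the microRNA blocked on these arrays and do not say if a control inhibitor was given to the control cells. No label says that the 3 arrays of a group came from separate cultures, so the p-values measure the spread between arrays, which may be technical.

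The medians of the 12 arrays ran from log2 5.72 to 5.87, and arrays of 1 group correlated at 0.9939 to 0.9984 across probe sets. All 8 macrophage markers were above the filter. Their summed signal, on the log2 scale, ran from 14.07 to 14.11 at 37 °C and 14.31 to 14.39 at 40 °C, and from 14.36 to 14.40 in control against 13.88 to 13.93 with the inhibitor, with 7 markers higher and 1 lower at 40 °C and 1 higher and 6 lower with the inhibitor. The 24 poly-A spike probe sets, which read RNA added to the sample, averaged 7.68 ± 0.04 (SD, n = 3) at 37 °C and 7.77 ± 0.04 at 40 °C, but 7.07 ± 0.35 in control and 5.83 ± 0.27 in the inhibitor group. Probe sets for 18S ribosomal RNA were also lower with the inhibitor, at 13.22 ± 0.15 in control against 10.01 ± 0.54 for the 5′ end and 12.75 ± 0.05 against 9.77 ± 0.33 for the middle. The probe set for 28S ribosomal RNA went the other way, at 10.24 ± 0.05 in control against 10.58 ± 0.10. The excess of the 3′ over the 5′ signal of GAPDH was 1.04 ± 0.04 in control and 0.72 ± 0.09 with the inhibitor. That of ACTB was 2.44 ± 0.09 in control and higher with the inhibitor, at 2.70 ± 0.16. Both were smaller in the temperature experiment. At 37 °C and 40 °C GAPDH gave 0.38 ± 0.02 and 0.44 ± 0.10, and ACTB 1.55 ± 0.04 and 1.58 ± 0.22. The summed signal of the 5 erythroid markers measured ran from 12.41 to 12.44 at 37 °C and 11.95 to 12.004 at 40 °C. Of the 4 above the filter, 1 was called lower at 40 °C and the rest were not called. Their differences ran from −0.46 to 0.04 with a median of −0.015, so the sum does not describe the markers as a set. The summed signal of the 8 lymphocyte markers measured ran from 8.15 to 8.28 in control and 8.57 to 8.70 with the inhibitor. There too 1 was called, higher, of the 5 above the filter, whose differences ran from 0.10 to 0.98 with a median of 0.14. The part of these shifts in the results that follow was not tested, other than by the fit with the spike level as a covariate.

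RefSeq promoters (GRCh38.p14, 250 bases before to 50 after the transcript start) were matched by symbol for 57 of the 65 members and 45 of the 50 tested. The heat shock element, the site of heat shock factors, was searched on both strands as 2 facing units, GAANNTTC, and as 3 units, that is the same 8 letters followed after 2 bases by GAA, so that each match of 3 units also counts as one of 2. The element of 2 units occurred in 3 of 45 members (6.67%), HNRNPA2B1, HNRNPC and RBM23, against 6.77% of all 35116 promoters and 6.76% of the genes tested. The element of 3 units occurred in HNRNPA2B1 and RBM23 (4.44%), against 0.490% of all promoters and 0.552% of genes tested. The CCAAT box, a search added after the data were seen, occurred on either strand in 32 of 45 members (71.1%), against 34.6% of promoters and 42.6% of genes tested. The 150 bases before the start are shown for the 3 members with a heat shock element, and for HNRNPLL and RBM14, which were among the 6 largest called increases at 40 °C and hold none. Capitals mark heat shock elements and CCAAT boxes (ATTGG where the box lies on the other strand), and all run 5′ to 3′ toward the start.
HNRNPA2B1, chr7:26200747-26200896, minus strand: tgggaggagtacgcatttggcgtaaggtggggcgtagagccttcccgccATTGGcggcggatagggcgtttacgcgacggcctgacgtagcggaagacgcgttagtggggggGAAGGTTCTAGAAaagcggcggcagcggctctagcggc
HNRNPC, chr14:21269443-21269592, minus strand: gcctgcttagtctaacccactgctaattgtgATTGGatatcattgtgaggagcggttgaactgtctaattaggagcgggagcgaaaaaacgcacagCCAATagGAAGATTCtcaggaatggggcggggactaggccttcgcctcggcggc
RBM23, chr14:22919150-22919299, minus strand: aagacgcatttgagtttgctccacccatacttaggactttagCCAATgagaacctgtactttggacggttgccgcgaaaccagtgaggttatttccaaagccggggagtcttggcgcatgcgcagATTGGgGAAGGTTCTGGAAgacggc
HNRNPLL, chr2:38602929-38603078, minus strand: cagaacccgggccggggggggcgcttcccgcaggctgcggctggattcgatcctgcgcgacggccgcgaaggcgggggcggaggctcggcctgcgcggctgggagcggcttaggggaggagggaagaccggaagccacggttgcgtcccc
RBM14, chr11:66616480-66616629, plus strand: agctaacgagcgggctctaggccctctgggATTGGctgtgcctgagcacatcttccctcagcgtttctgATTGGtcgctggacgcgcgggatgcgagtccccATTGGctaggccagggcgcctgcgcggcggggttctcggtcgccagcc

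At 40 °C members of both families were called in either direction. RBM14 (log2 difference 0.62, 1.54-fold) and RBM10 (0.57, 1.49-fold) had the largest increases, and RBM41 (−0.99, 1.99-fold lower) and RBM43 (−0.65, 1.57-fold lower) the largest decreases. Of the 50 members, 12 were higher, 16 were lower and 22 did not pass the test (limma, two-sided, Benjamini-Hochberg adjustment over all 13909 genes, threshold 0.05). No called member differed by as much as 2-fold. The share called, 56%, stands beside 39.3% of all genes tested. By direction, 24% of members were higher beside 21.6% of all genes, and 32% were lower beside 17.7%. The 37 °C and 40 °C arrays did not overlap for 35 of 50 members (70%), beside 49.5% of all genes. All 50 members were above the 50th percentile of signal as well. Among genes that bright, a fit on those alone called 12 members higher and 19 lower (62%), beside 51.3% of 10579 genes, 28.3% higher and 23.0% lower. The members' median signed difference was 0.01, the same as over all genes, and the median size of their differences was 0.18, beside 0.13. Of the HNRNP genes 3 were higher and 8 lower of 19, and of the RBM genes 9 were higher and 8 lower of 31; the difference between the families was not tested.

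With the inhibitor, RBM4 (0.96, 1.94-fold) and HNRNPAB (0.75, 1.69-fold) rose most, and HNRNPUL2 (−0.82, 1.76-fold lower) and RBM43 (−0.77, 1.71-fold lower) fell most. Of the 50 members, 20 were higher, 11 were lower and 19 did not pass, by the same test. That is 62% beside 45.2% of all genes, with 40% higher beside 25.6% and 22% lower beside 19.6%. Groups did not overlap for 35 members (70%), beside 54.1% of genes. Above the 50th percentile 22 members were higher and 11 lower (66%), beside 57.6% of genes, 32.3% higher and 25.2% lower. The median signed difference was 0.08 for members and 0.09 for all genes, and the median size of the difference, whatever its sign, was 0.28 for members and 0.22 for all genes. Again no called member reached 2-fold. When the mean poly-A spike level was added to the fit as a covariate, limma called 0 of the 50 members in either direction, and 5 higher and 4 lower at an unadjusted p under 0.05. Over all genes the same covariate left 52 higher and 184 lower, and at 40 °C it left 7 members higher and 7 lower. No inhibitor call of a member named below was held in that fit, in which spike level and group can hardly be told apart. At 40 °C it ended the calls of HNRNPA0, HNRNPA1, HNRNPA3, HNRNPD, HNRNPK, HNRNPR, HNRNPUL1, RBM12B, RBM15, RBM15B, RBM33, RBM38, RBM47, RBM7 and RBM8A.

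**Figure D1:**
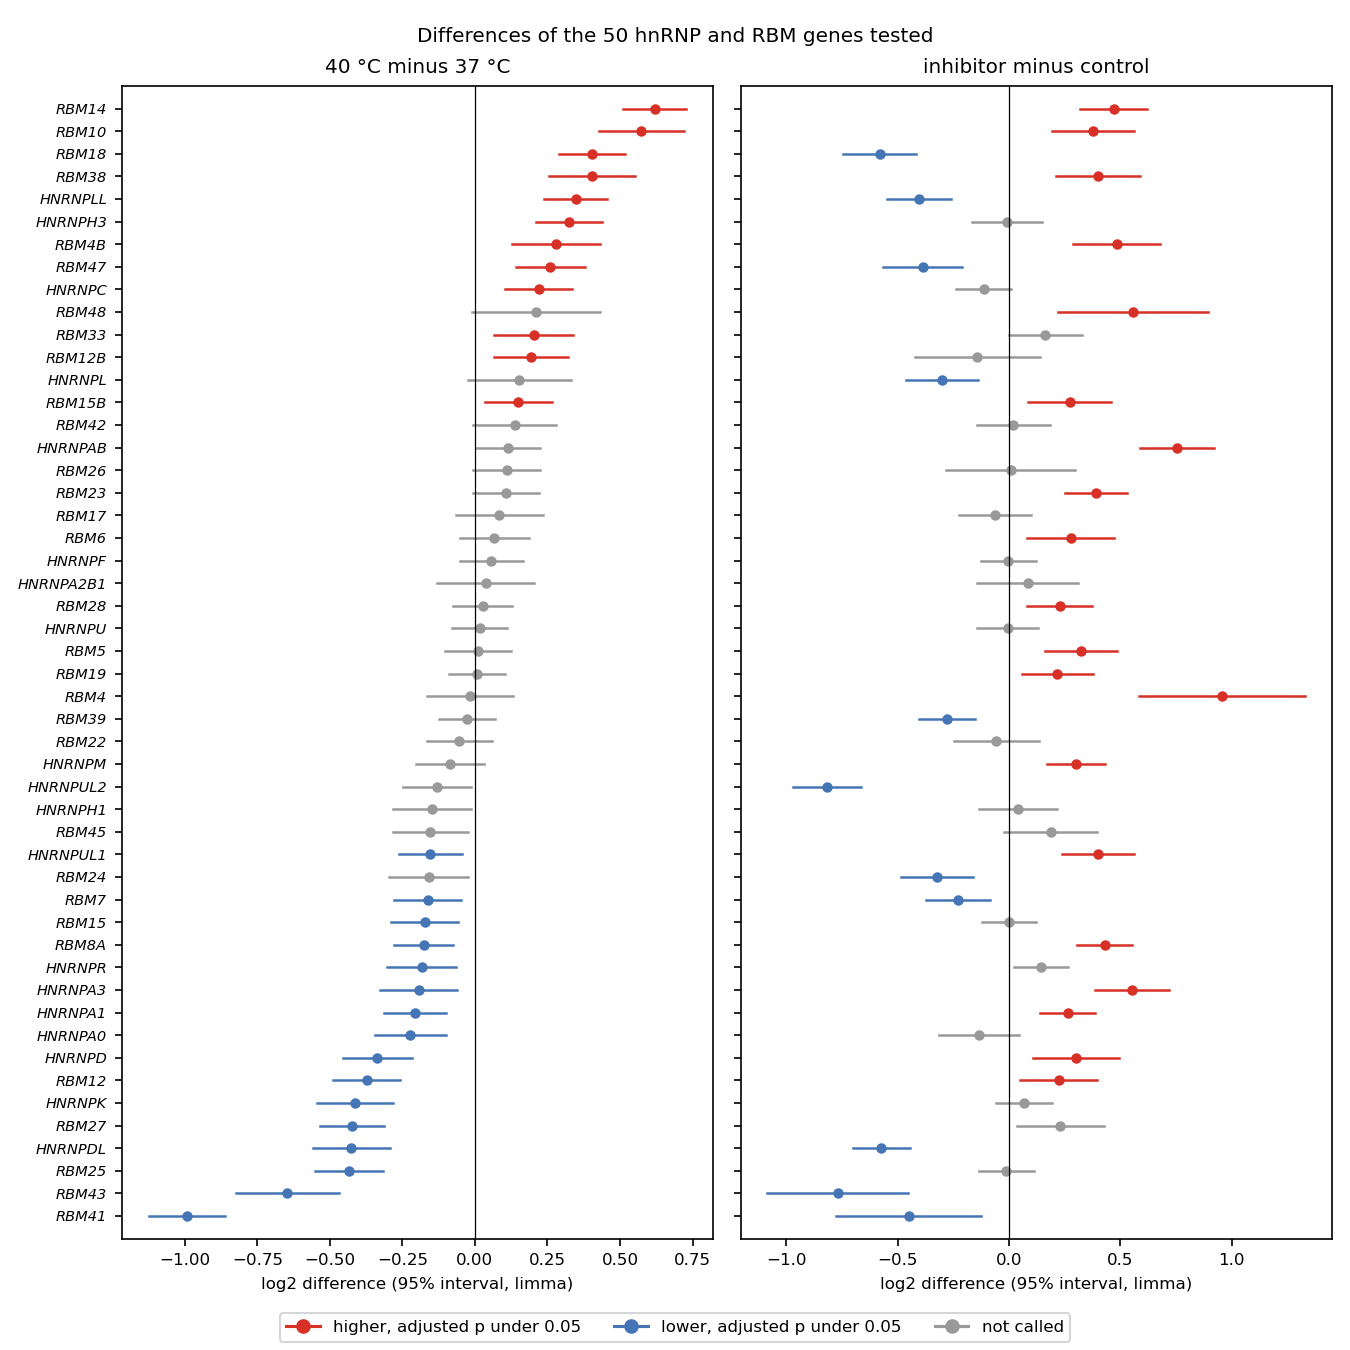
Log2 differences of the 50 members tested, sorted by the temperature difference, for 40 °C minus 37 °C (left) and inhibitor minus control (right). Points are limma estimates with 95% intervals, red for higher and blue for lower at an adjusted p under 0.05, grey for not called; they run from −0.99 (RBM41) to 0.62 (RBM14) on the left and from −0.82 (HNRNPUL2) to 0.96 (RBM4) on the right.

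The A, B and D type hnRNPs, the most abundant class of proteins on nascent transcripts, were lower at 40 °C in 5 of 7 members tested and higher in 0, beside 17.7% lower and 21.6% higher of all genes. With the inhibitor 4 of the 7 were higher and 1 lower, beside 25.6% and 19.6%. Both counts were the same after quantile normalization and after centring the arrays on their medians. With the spike covariate only HNRNPDL of the 5 was still called at 40 °C (adjusted p = 0.0384), while HNRNPA0, HNRNPA1, HNRNPA3 and HNRNPD had adjusted p of 0.157, 0.13, 0.099 and 0.0674. HNRNPA1, a shuttling splicing repressor, read log2 13.27, 13.26 and 13.19 at 37 °C and 13.02, 13.01 and 13.07 at 40 °C. The groups did not overlap, and the difference was −0.21 (1.15-fold lower, limma adjusted p = 0.0083). All 5 of its probe sets were lower at 40 °C. In the second experiment HNRNPA1 read 12.79, 12.81 and 12.76 in control and 13.04, 13.06 and 13.05 with the inhibitor, so that every inhibitor array lay above every control array (0.26, 1.20-fold, adjusted p = 0.00528). Probes of HNRNPA1 can also bind the RNA of its many processed copies, which makes its value uncertain.

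HNRNPA3, a close relative of HNRNPA1, followed the same course. Its values were 9.60, 9.60 and 9.47 at 37 °C and 9.44, 9.32 and 9.33 at 40 °C (−0.19, 1.14-fold lower, limma adjusted p = 0.0294), with 0.03 between the lowest array of one group and the highest of the other. All 4 probe sets were lower, but the call was lost without 37 °C replicate 1 or 2 or without 40 °C replicate 2 or 3, with differences of −0.17 to −0.18 and adjusted p of 0.0829 to 0.0988. With the inhibitor HNRNPA3 rose from 9.66, 9.61 and 9.64 to 10.27, 10.23 and 10.06 (0.55, 1.46-fold, adjusted p = 0.000715), a gap of 0.40 between the groups. HNRNPA0, known to bind AU-rich elements of cytokine transcripts in macrophages, was lower at 40 °C (−0.22, adjusted p = 0.0111) and not called with the inhibitor (−0.14, adjusted p = 0.185). Its other probe set was not called at 40 °C (0.02, limma adjusted p = 0.823). The mean of both was not called there either (−0.10, adjusted p = 0.0538). With the inhibitor the other probe set differed by 0.19 (adjusted p = 0.0503).

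HNRNPD, also called AUF1, directs the decay of transcripts with AU-rich elements. It read 11.86, 11.88 and 11.98 at 37 °C and 11.61, 11.52 and 11.58 at 40 °C, without overlap (−0.34, 1.26-fold lower, limma adjusted p = 0.00137). With the inhibitor it read 11.06, 11.17 and 11.34 against 10.94, 10.83 and 10.90 in control (0.30, 1.23-fold, adjusted p = 0.021). The latter call was lost without control replicate 2 (0.27, adjusted p = 0.0644) or control replicate 3 (0.31, adjusted p = 0.0607). The mean over all its probe sets was not called with the inhibitor (−0.017), since 5 of 8 were higher and 2 lower.

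HNRNPDL, the neighbour and paralog of HNRNPD on chromosome 4, fell in both experiments. It went from 10.30, 10.39 and 10.30 to 9.87, 9.84 and 10.00 at 40 °C (−0.43, 1.34-fold lower, limma adjusted p = 0.000721). It also fell from 10.73, 10.79 and 10.73 in control to 10.15, 10.20 and 10.18 with the inhibitor (−0.57, 1.49-fold lower, adjusted p = 0.000191). Neither pair of groups overlapped. At 40 °C all 5 probe sets were lower, the strongest by −0.94, whereas with the inhibitor 2 of 5 were lower, by −0.57 and −1.58, and the rest were not called.

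HNRNPAB was called with the inhibitor and, by the probe set that stands for it, not at 40 °C. It read 11.57, 11.60 and 11.63 at 37 °C and 11.75, 11.65 and 11.74 at 40 °C (0.11, limma adjusted p = 0.0988, 95% interval 0.00 to 0.22). Those groups were 0.02 apart. The mean of its 3 probe sets was called higher at 40 °C (0.13, adjusted p = 0.0385), and trend and robust eBayes also called the gene. Control arrays read 10.67, 10.45 and 10.52 and inhibitor arrays 11.29, 11.32 and 11.29 (0.75, 1.69-fold, adjusted p = 0.000182), and all 3 probe sets were higher. Whether the inhibitor and temperature differences differ from each other was not tested for any member. HNRNPA2B1, known for sorting microRNAs into vesicles, read 12.23, 12.07 and 12.25 at 37 °C and 12.25, 12.10 and 12.31 at 40 °C (0.04, adjusted p = 0.737). Its control values were 12.31, 12.20 and 12.18 and its inhibitor values 12.16, 12.27 and 12.51 (0.08, adjusted p = 0.509). Groups overlapped in both experiments. The promoter of HNRNPA2B1 holds the element of 3 units, and a link between that element and these values was not tested. Its other probe set, however, was lower at 40 °C by −0.62, and the mean of both was called lower (−0.29, adjusted p = 0.000724).

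The C type is represented by HNRNPC alone, which binds uridine tracts and keeps cryptic exons out of transcripts. It read 12.71, 12.67 and 12.79 at 37 °C and 12.95, 12.90 and 12.98 at 40 °C (0.22, 1.16-fold, limma adjusted p = 0.00939), with no overlap. Its probe sets did not move as 1: 4 were higher and 2 lower, the latter by −0.76 and −0.64, and the mean of all 6 was −0.062. In the other experiment it was not called (−0.11, adjusted p = 0.119), although its control arrays at 12.52, 12.56 and 12.54 all lay above the inhibitor arrays at 12.43, 12.41 and 12.44.

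Of the F and H type hnRNPs, which bind runs of guanosine, 1 of 3 was higher at 40 °C, beside 21.6% of all genes. None was called with the inhibitor, beside 45.2% of all genes. HNRNPH3 rose from 9.71, 9.69 and 9.73 to 10.10, 9.97 and 10.03 (0.32, 1.25-fold, limma adjusted p = 0.00128), and its 3 probe sets all rose. In the other experiment HNRNPH3 overlapped, at 9.54, 9.44 and 9.53 in control and 9.40, 9.57 and 9.51 with the inhibitor (−0.01, adjusted p = 0.913). HNRNPF stayed within 0.12 in the temperature experiment, at 11.86, 11.88 and 11.86 against 11.93, 11.86 and 11.98 (0.06, 95% interval −0.05 to 0.17). It read 11.56 on all 3 control arrays and 11.54, 11.54 and 11.59 with the inhibitor (0.00, 95% interval −0.13 to 0.12). HNRNPH1 read 10.74, 10.68 and 10.73 at 37 °C and 10.64, 10.46 and 10.61 at 40 °C, lower on each 40 °C array but short of the threshold (−0.15, adjusted p = 0.0816). With the inhibitor its groups overlapped, at 10.34, 10.29 and 10.36 against 10.24, 10.39 and 10.48 (0.04, adjusted p = 0.685).

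Among the other hnRNPs, 1 was higher and 3 lower of 8 at 40 °C, beside 21.6% and 17.7% of all genes. With the inhibitor 2 were higher and 3 lower, beside 25.6% and 19.6%. HNRNPK, which binds cytidine-rich RNA and DNA, fell from 12.36, 12.23 and 12.34 to 11.96, 11.82 and 11.91 at 40 °C (−0.41, 1.33-fold lower, limma adjusted p = 0.000839), with 0.27 between the groups. That fall was seen by 2 of its 6 probe sets, the 2 with the highest signal, while the other 4 were not called and the mean of all 6 was −0.12. With the inhibitor HNRNPK read 11.64, 11.61 and 11.67 against 11.71, 11.68 and 11.73 (0.07, adjusted p = 0.345). There the same other 4 probe sets were lower, so that the mean of all 6 was −0.27 and called.

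HNRNPLL, a regulator of PTPRC splicing in lymphocytes, moved in opposite directions in the 2 experiments. Its values rose from 10.49, 10.57 and 10.52 at 37 °C to 10.84, 10.92 and 10.86 at 40 °C (0.35, 1.27-fold, limma adjusted p = 0.000724). They fell from 10.90, 10.87 and 10.86 in control to 10.40, 10.55 and 10.47 with the inhibitor (−0.40, 1.32-fold lower, adjusted p = 0.00149). All 5 of its probe sets were higher at 40 °C and all 5 lower with the inhibitor, without overlap between the groups. Its relative HNRNPL, which binds CA repeats, read 8.86, 8.99 and 8.81 at 37 °C and 9.19, 8.98 and 8.95 at 40 °C, with overlap (0.15, adjusted p = 0.161). It was lower with the inhibitor, at 8.27, 8.41 and 8.38 against 8.56, 8.70 and 8.70 in control (−0.30, 1.23-fold lower, adjusted p = 0.01).

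HNRNPUL2, an hnRNP U relative involved in the DNA damage response, showed the largest fall with the inhibitor, from 8.83, 8.70 and 8.85 to 8.02, 7.97 and 7.94 (−0.82, 1.76-fold lower, limma adjusted p = 8.65e-05). The gap between the groups was 0.68, and the gene has 1 probe set. At 40 °C it was lower on every array but not called, at 8.41, 8.46 and 8.33 against 8.50, 8.57 and 8.52 (−0.13, adjusted p = 0.0774). Its relative HNRNPUL1 went the other way with the inhibitor (0.40, 1.32-fold, adjusted p = 0.00272) and was lower at 40 °C (−0.15, adjusted p = 0.0327). That last call was lost on leaving out any array but 40 °C replicate 1, with differences of −0.13 to −0.17 and adjusted p up to 0.102. The mean of its probe sets was 0.016 at 40 °C and 0.091 with the inhibitor, neither called.

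HNRNPM, a repressor of intron removal in innate immune transcripts, overlapped at 11.74, 11.76 and 11.68 against 11.71, 11.59 and 11.62 at 40 °C (−0.09, limma adjusted p = 0.223). It rose with the inhibitor from 10.83, 10.81 and 10.83 to 11.08, 11.18 and 11.11 (0.30, 1.23-fold, adjusted p = 0.00388), in all 3 probe sets. HNRNPR was lower at 40 °C (−0.18, adjusted p = 0.0237), a call lost without 37 °C replicate 1 (−0.15, adjusted p = 0.0887) or 40 °C replicate 2 (−0.16, adjusted p = 0.0788). The other probe sets of HNRNPR were not called there (−0.14 and 0.09), nor was the mean of all 3 (−0.079, limma adjusted p = 0.26). HNRNPU, a nuclear scaffold protein, was nearly level, at 11.73, 11.72 and 11.74 against 11.77, 11.74 and 11.73 at 40 °C (0.02, 95% interval −0.08 to 0.11). Its control arrays read 11.70, 11.68 and 11.69 and its inhibitor arrays 11.64, 11.76 and 11.65 (−0.01, 95% interval −0.15 to 0.13). Of its 9 probe sets tested, 2 were higher and 1 lower with the inhibitor.

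**Figure D2:**
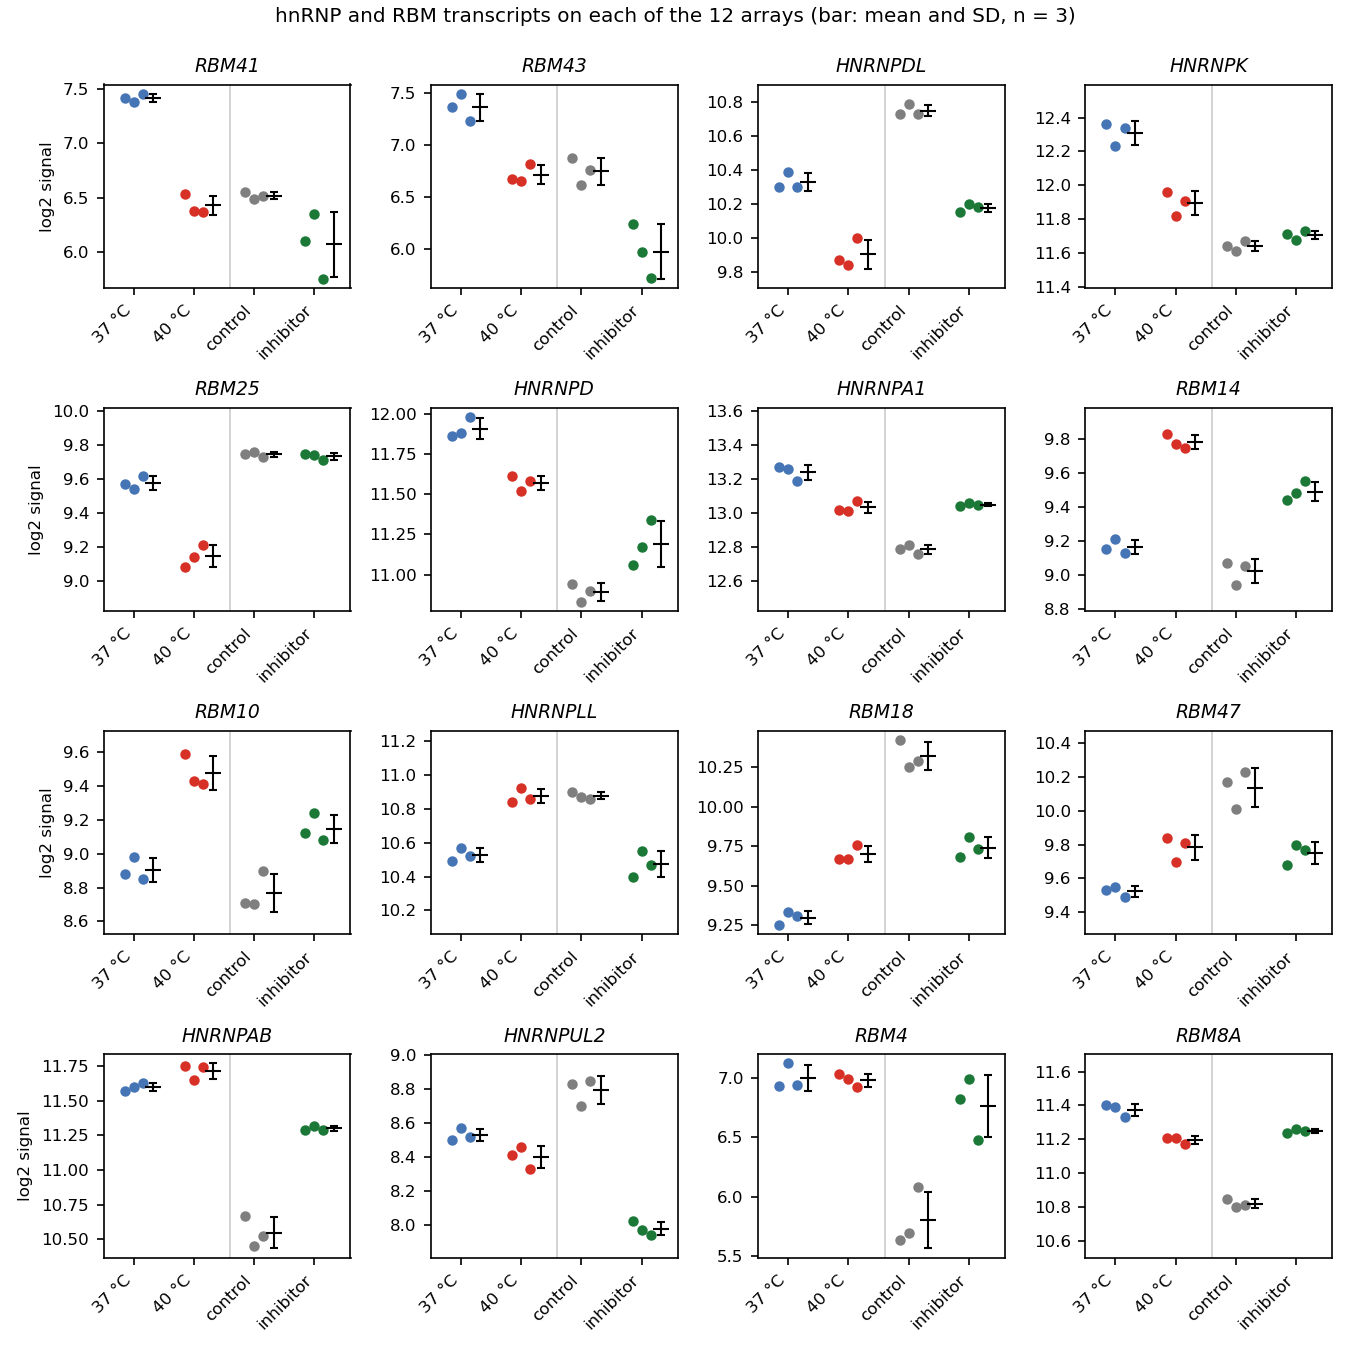
Log2 signal of 16 members on every array, 3 per group, with the mean and SD beside the points; the grey line separates the temperature experiment from the inhibitor experiment and each panel has its own axis. HNRNPLL, RBM18 and RBM47 lie higher at 40 °C and lower with the inhibitor, RBM10 and RBM14 higher in both, and RBM41, RBM43 and HNRNPDL lower in both.

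The RBM proteins of the spliceosome and of splice site choice gave 1 higher and 2 lower of 11 at 40 °C (27.3%, beside 39.3% of all genes). With the inhibitor 5 of the 11 were higher and 2 lower (63.6%, beside 45.2%). RBM10, an exon-skipping regulator, read 8.88, 8.98 and 8.85 at 37 °C and 9.59, 9.43 and 9.41 at 40 °C (0.57, 1.49-fold, limma adjusted p = 0.00028), a gap of 0.43. It was also higher with the inhibitor, at 9.12, 9.24 and 9.08 against 8.71, 8.70 and 8.90 in control (0.38, 1.30-fold, adjusted p = 0.00645). Its paralog RBM5 did not share the rise at 40 °C, with values of 10.39, 10.42 and 10.36 against 10.47, 10.37 and 10.36 (0.01, 95% interval −0.10 to 0.12). RBM5 was higher with the inhibitor, from 9.99, 9.93 and 10.07 to 10.32, 10.40 and 10.24 (0.32, 1.25-fold, adjusted p = 0.00685), in 5 of 6 probe sets. RBM6, the third paralog and the neighbour of RBM5 on chromosome 3, had a like difference with the inhibitor (0.28, adjusted p = 0.0294) and was not called at 40 °C (0.07, adjusted p = 0.362). The inhibitor call of RBM6 was lost without control replicate 2 or 3 or inhibitor replicate 2 or 3 (0.21 to 0.28, adjusted p up to 0.0822).

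RBM41, a relative of a minor spliceosome protein, had the largest decrease of any member at 40 °C. It read 7.42, 7.38 and 7.46 at 37 °C and 6.53, 6.38 and 6.37 at 40 °C (−0.99, 1.99-fold lower, limma adjusted p = 1.46e-05). The gap between the groups, 0.85, was larger than the range within either, 0.08 and 0.16. With the inhibitor it read 6.10, 6.35 and 5.75 against 6.55, 6.49 and 6.51 in control (−0.45, 1.37-fold lower, adjusted p = 0.0326). The inhibitor arrays spread over 0.60, and the call was lost without any 1 of the control arrays or without inhibitor replicate 1 (−0.43 to −0.47, adjusted p 0.0643 to 0.0898). The gene has 1 probe set.

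RBM25, which promotes the use of upstream splice sites bound by the U1 particle, fell from 9.57, 9.54 and 9.62 to 9.08, 9.14 and 9.21 at 40 °C (−0.43, 1.35-fold lower, limma adjusted p = 0.000376). Of its 9 probe sets 8 were lower. On inhibitor arrays it read 9.75, 9.74 and 9.71 against 9.75, 9.76 and 9.73 in control (−0.01, 95% interval −0.14 to 0.11). RBM39, the splicing factor targeted by aryl sulfonamide degraders, read 11.05, 11.01 and 11.04 at 37 °C and 11.01, 10.99 and 11.02 at 40 °C (−0.03, 95% interval −0.12 to 0.07). It fell with the inhibitor from 11.33, 11.30 and 11.35 to 11.07, 11.02 and 11.05 (−0.28, 1.21-fold lower, adjusted p = 0.00432). Only 3 of its 7 probe sets were lower and 1 was higher, and their mean (−0.12) was not called.

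RBM48, which acts with ARMC7 in minor intron splicing, was higher with the inhibitor, at 6.56, 6.39 and 5.98 against 5.85, 5.75 and 5.66 (0.56, 1.47-fold, limma adjusted p = 0.0158), in all 3 probe sets tested. The call was lost without control replicate 3 (0.51, adjusted p = 0.058). At 40 °C its groups overlapped, at 6.01, 6.14 and 6.37 against 6.50, 6.31 and 6.34 (0.21, adjusted p = 0.121), and it was called without 37 °C replicate 3 (0.31, adjusted p = 0.0204). RBM23, the other member with an element of 3 units, was not called at 40 °C (0.11, adjusted p = 0.125) and was higher with the inhibitor (0.39, 1.31-fold, adjusted p = 0.00152). RBM17 and RBM22, both spliceosome proteins, and RBM42 were called in neither experiment, with differences between −0.06 and 0.14. That holds for the probe sets that stand for them. With the inhibitor another probe set of RBM22 was lower by −1.47 (limma adjusted p = 0.000427). Another of RBM17 was lower by −0.39 (adjusted p = 0.00664). The rest of their tested probe sets were not called.

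The RBM proteins of nuclear export, decay, exon junctions and m6A methylation gave 2 higher and 4 lower of 7 at 40 °C (85.7%, beside 39.3% of all genes), and all 7 had groups without overlap there, beside 49.5% of all genes. After centring on array medians 1 was higher and 4 lower. With the inhibitor 2 were higher and 1 lower (42.9%, beside 45.2%). RBM8A, the exon junction core protein Y14, read 11.40, 11.39 and 11.33 at 37 °C and 11.21, 11.21 and 11.17 at 40 °C (−0.18, 1.13-fold lower, limma adjusted p = 0.0139). Without 37 °C replicate 1 the call was lost (−0.16, adjusted p = 0.0561). Its next brightest probe set was not called at 40 °C (−0.003, limma adjusted p = 0.966). Another was lower by −0.44 (adjusted p = 0.00237), and the rest were not called. With the inhibitor RBM8A rose from 10.85, 10.80 and 10.81 to 11.24, 11.26 and 11.25 (0.43, 1.35-fold, adjusted p = 0.000577). That was a gap of 0.39 and the larger of its changes. Other probe sets of RBM8A were higher there by 0.46 and 1.44, and the rest were not called.

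RBM15, an adaptor of the m6A writer complex, was lower at 40 °C in the probe set that stands for it, at 9.55, 9.47 and 9.58 against 9.69, 9.76 and 9.67 (−0.17, 1.13-fold lower, limma adjusted p = 0.0266). Of its 5 probe sets 1 was lower and 2 were higher, and their mean was 0.067. The call was lost without 37 °C replicate 1 or 2 or 40 °C replicate 2 (−0.14 to −0.18, adjusted p 0.0619 to 0.0859). With the inhibitor it read 10.04, 10.08 and 10.07 against 10.06, 10.07 and 10.06 (0.00, adjusted p = 1). Its paralog RBM15B was higher in both experiments (0.15, adjusted p = 0.043 at 40 °C and 0.27, adjusted p = 0.0262 with the inhibitor). The first of these calls was lost on leaving out any array but 40 °C replicate 2 (0.11 to 0.16, adjusted p up to 0.119). The inhibitor call was lost without control replicate 2 or 3 or inhibitor replicate 2 or 3 (0.22 to 0.28, adjusted p up to 0.0791).

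RBM27, a partner of the nuclear exosome targeting machinery, fell at 40 °C from 8.86, 8.97 and 8.93 to 8.51, 8.51 and 8.47 (−0.42, 1.34-fold lower, limma adjusted p = 0.000285). The groups were 0.35 apart, but its other probe set was higher by 0.29 and the mean of both was −0.07. Inhibitor arrays read 9.07, 9.24 and 9.12 against 9.05, 8.80 and 8.89 (0.23, adjusted p = 0.0575). The call was gained without control replicate 1 (0.30, adjusted p = 0.0294), while the mean of both probe sets went the other way (−0.26). Its paralog RBM26 was called in neither experiment (0.11 and 0.01). RBM7, a subunit of the nuclear exosome targeting complex, was lower in both (−0.16, adjusted p = 0.0332 and −0.23, adjusted p = 0.0179). At 40 °C that call was lost without 37 °C replicate 2 or 3 or 40 °C replicate 1 or 2 (−0.13 to −0.17, adjusted p up to 0.104), and in the other experiment without control replicate 1 or 3 or inhibitor replicate 1 (−0.19 to −0.24, adjusted p up to 0.0647). RBM33 was higher at 40 °C (0.20, adjusted p = 0.0265), a call lost without 37 °C replicate 1 or 3 or 40 °C replicate 1 or 3 (0.16 to 0.21, adjusted p up to 0.0888), and was not called with the inhibitor (0.16). The mean of its probe sets at 40 °C was −0.042 and not called. With the inhibitor another probe set of RBM33 was higher by 0.71 (limma adjusted p = 0.00101), and the remaining probe set was not called (0.02).

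The nucleolar proteins RBM19 and RBM28 act in ribosomal RNA processing. By the probe sets that stand for them, they were not called at 40 °C (0.01 and 0.03) and were both higher with the inhibitor. RBM19 differed by 0.22 (limma adjusted p = 0.0352) and RBM28 by 0.23 (adjusted p = 0.0214). The RBM19 call was lost on leaving out any array but inhibitor replicate 2 (0.17 to 0.24, adjusted p up to 0.13). That of RBM28 was lost without control replicate 2 or 3 (0.19 and 0.23, adjusted p 0.0705 and 0.0633). The other probe set of RBM28 was lower at 40 °C (−0.34, limma adjusted p = 0.0205) and not called with the inhibitor (−0.10, adjusted p = 0.526). The other probe sets of RBM19 were called in neither experiment, with inhibitor differences of 0.19 and 0.28 (adjusted p = 0.196 and 0.072).

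Of the RBM proteins of messenger RNA stability, translation and editing, 3 were higher and 1 lower of 6 at 40 °C. All genes gave 21.6% and 17.7%. With the inhibitor 3 were higher and 2 lower, beside 25.6% and 19.6%. RBM4, a regulator of splicing and translation, had the largest increase with the inhibitor, from 5.64, 5.70 and 6.08 in control to 6.82, 6.99 and 6.48 (0.96, 1.94-fold, limma adjusted p = 0.00224). The arrays of each group spread over about as much as the 0.40 that separates the groups. RBM4 was read by 1 tested probe set, since its other probe set with 1 symbol was under the filter. In the temperature experiment it overlapped, at 6.93, 7.12 and 6.94 against 7.03, 6.99 and 6.92 (−0.02, 95% interval −0.16 to 0.13). Its neighbour and close paralog on chromosome 11, RBM4B, was higher in both. It read 7.40, 7.37 and 7.56 against 7.64, 7.77 and 7.76 at 40 °C (0.28, 1.21-fold, adjusted p = 0.0104). With the inhibitor it read 7.32, 7.60 and 7.36 against 6.95, 6.91 and 6.97 in control (0.48, 1.40-fold, adjusted p = 0.00269).

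RBM38, a p53 target that stabilises transcripts of cell cycle inhibitors, was higher in both by the same amount. It read 8.60, 8.71 and 8.64 at 37 °C and 9.18, 9.00 and 8.98 at 40 °C (0.40, 1.32-fold, limma adjusted p = 0.0017). Control arrays read 8.67, 8.77 and 8.82 and inhibitor arrays 9.02, 9.26 and 9.18 (0.40, 1.32-fold, adjusted p = 0.00529). Neither pair of groups overlapped.

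RBM43 was the gene of this group that fell in both. It read 7.36, 7.49 and 7.23 at 37 °C and 6.67, 6.65 and 6.82 at 40 °C (−0.65, 1.57-fold lower, limma adjusted p = 0.0004). It read 6.87, 6.61 and 6.76 in control and 6.24, 5.97 and 5.72 with the inhibitor (−0.77, 1.71-fold lower, adjusted p = 0.0028). Both probe sets tested were lower in both experiments, without overlap. RBM47, a cofactor of C-to-U RNA editing, is outside the rule for members given by array and was added after its values were seen. It rose from 9.53, 9.55 and 9.49 to 9.84, 9.70 and 9.81 at 40 °C (0.26, 1.20-fold, adjusted p = 0.00499) and fell from 10.17, 10.01 and 10.23 to 9.68, 9.80 and 9.77 with the inhibitor (−0.39, 1.31-fold lower, adjusted p = 0.00473). RBM45 was called in neither (−0.15 and 0.19), and with the inhibitor it was called without inhibitor replicate 3 (0.26, adjusted p = 0.0453).

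In the remaining RBM genes, 3 were higher and 1 lower of 4 at 40 °C, beside 21.6% and 17.7% of all genes. With the inhibitor 2 were higher and 1 lower, beside 25.6% and 19.6%. RBM14, a paraspeckle protein and coactivator, read 9.15, 9.21 and 9.13 at 37 °C and 9.83, 9.77 and 9.75 at 40 °C, a gap of 0.54 (0.62, 1.54-fold, limma adjusted p = 5.07e-05). It was also higher with the inhibitor, at 9.44, 9.48 and 9.55 against 9.07, 8.94 and 9.05 (0.47, 1.39-fold, adjusted p = 0.000919). In each experiment 2 of its 3 probe sets were higher. RBM14 is followed on chromosome 11 by RBM4 and RBM4B with no other gene coding a protein between them but the RBM14-RBM4 readthrough, whose probe set was under the filter. Of these 3 neighbours RBM14 and RBM4B were called higher in both experiments and RBM4 with the inhibitor. RBM4 and RBM4B are near copies of each other, and their probes may share signal.

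RBM18, whose role is little described, rose at 40 °C from 9.25, 9.33 and 9.31 to 9.67, 9.67 and 9.76 (0.40, 1.32-fold, limma adjusted p = 0.000417). It fell with the inhibitor from 10.42, 10.25 and 10.29 to 9.68, 9.81 and 9.73 (−0.58, 1.49-fold lower, adjusted p = 0.000524). Of its 3 probe sets, 2 were higher and 1 lower at 40 °C, and 2 were lower with the inhibitor. RBM12 was lower at 40 °C (−0.37, 1.30-fold lower, adjusted p = 0.000738) and higher with the inhibitor (0.22, adjusted p = 0.0422), the latter lost on leaving out any array but control replicate 3 (0.18 to 0.26, adjusted p up to 0.12). RBM12B was higher at 40 °C (0.19, adjusted p = 0.0244) and was not called with the inhibitor (−0.14). The 40 °C call was lost without 37 °C replicate 3 or 40 °C replicate 2 or 3 (0.15 to 0.20, adjusted p up to 0.083). The other probe sets of RBM12B were not called at 40 °C (−0.07 and −0.007), nor was the mean of its probe sets (0.039, limma adjusted p = 0.489).

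Of the tissue-restricted RBM genes, 4 of 5 were under the filter and RBM24, a splicing regulator of muscle, was tested. Its values, singled out after they were seen, were 5.81, 5.81 and 5.72 at 37 °C and 5.62, 5.53 and 5.71 at 40 °C, and 9.55, 9.52 and 9.65 in control and 9.30, 9.30 and 9.15 with the inhibitor. Within the experiments it was not called at 40 °C (−0.16, limma adjusted p = 0.0634), unless 40 °C replicate 3 was left out (−0.21, adjusted p = 0.0357), and was lower with the inhibitor (−0.32, 1.25-fold lower, adjusted p = 0.0073), in all 3 probe sets tested. The 2 experiments were 3.34 apart at their nearest arrays, and 6 of the 13909 genes tested, RBM24 among them, had a gap that large. All 5 of its probe sets lay higher on every array of the inhibitor experiment. The other members stayed close by comparison, and the next gap, of RBM42, was 0.67. With RBM24 counted, 21 of 50 members (42.0%) had experiments without overlap, beside 47.7% of all genes. The experiments differ in handling and were not tested against each other.

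Set side by side, 18 members were called in both experiments, which is 64.3% of those called at 40 °C and 58.1% of those called with the inhibitor. Over all genes these shares were 57.8% and 50.3%. The 2 experiments have no array in common. Of the 18 members, 9 (50%) had the same direction, beside 60.5% of the 3163 genes called in both. RBM10, RBM14, RBM15B, RBM38 and RBM4B were higher in both, and HNRNPDL, RBM41, RBM43 and RBM7 were lower in both. HNRNPA1, HNRNPA3, HNRNPD, HNRNPUL1, RBM12 and RBM8A were lower at 40 °C and higher with the inhibitor, and HNRNPLL, RBM18 and RBM47 the reverse. HNRNPA2B1, HNRNPF, HNRNPH1, HNRNPU, RBM17, RBM22, RBM26, RBM42 and RBM45 were called in neither, by the probe set that stands for each.

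**Figure D3:**
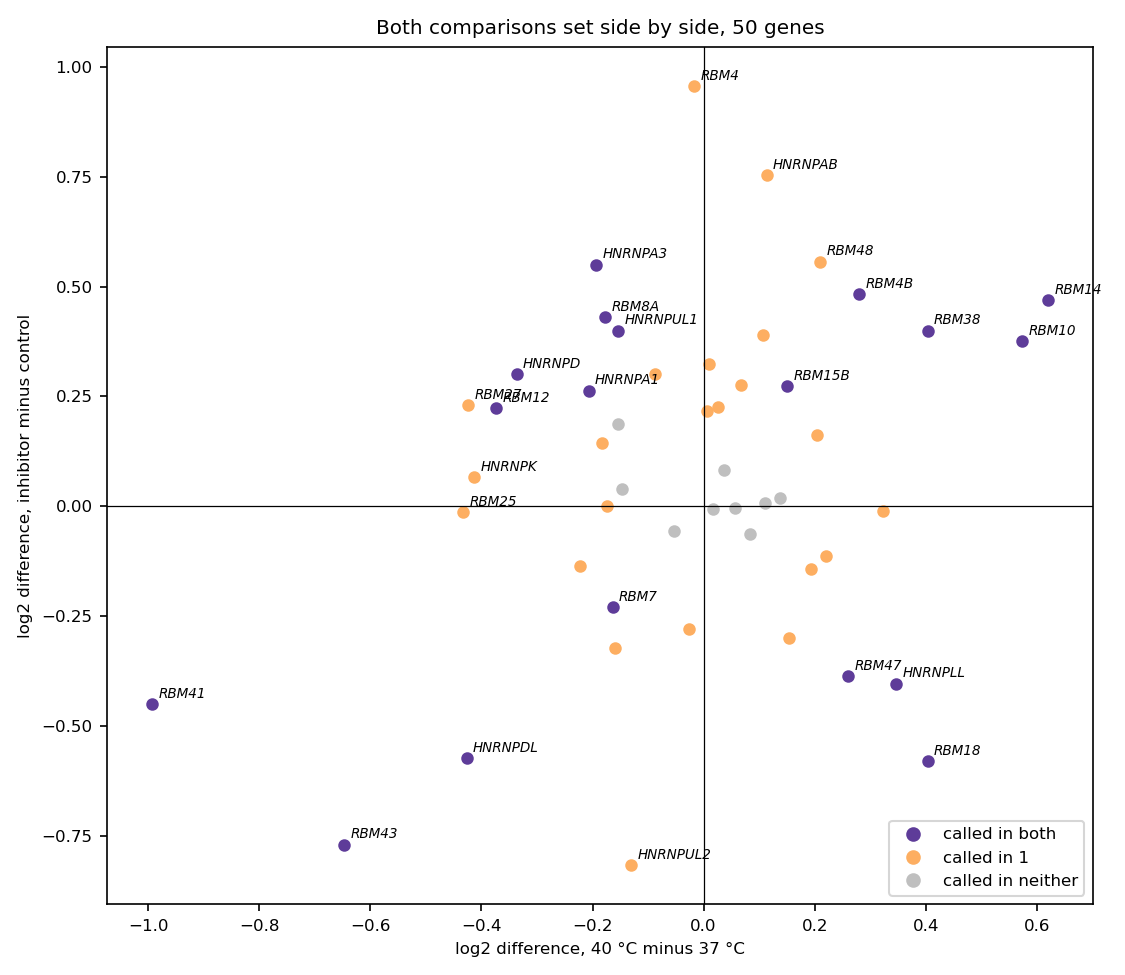
Log2 difference of each of the 50 members at 40 °C (x axis) and with the inhibitor (y axis), coloured by whether limma called it in both experiments (18), in 1 or in neither (9). HNRNPA1, HNRNPA3, HNRNPD, HNRNPUL1, RBM12 and RBM8A lie in the upper left, and HNRNPLL, RBM18 and RBM47 in the lower right.

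Several members are read by more than 1 probe set, and these did not always move together. Tested one by one, 174 probe sets of members were above the filter. At 40 °C 30 of them were higher and 51 lower (17.2% and 29.3%), beside 19.9% and 17.6% of all probe sets. With the inhibitor 47 were higher and 38 lower (27.0% and 21.8%), beside 21.3% and 22.0%. HNRNPC, HNRNPD, RBM15, RBM18 and RBM27 had probe sets called in both directions at 40 °C, and HNRNPD, HNRNPU and RBM39 had them with the inhibitor. The cause of these splits was not tested.

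**Figure D4:**
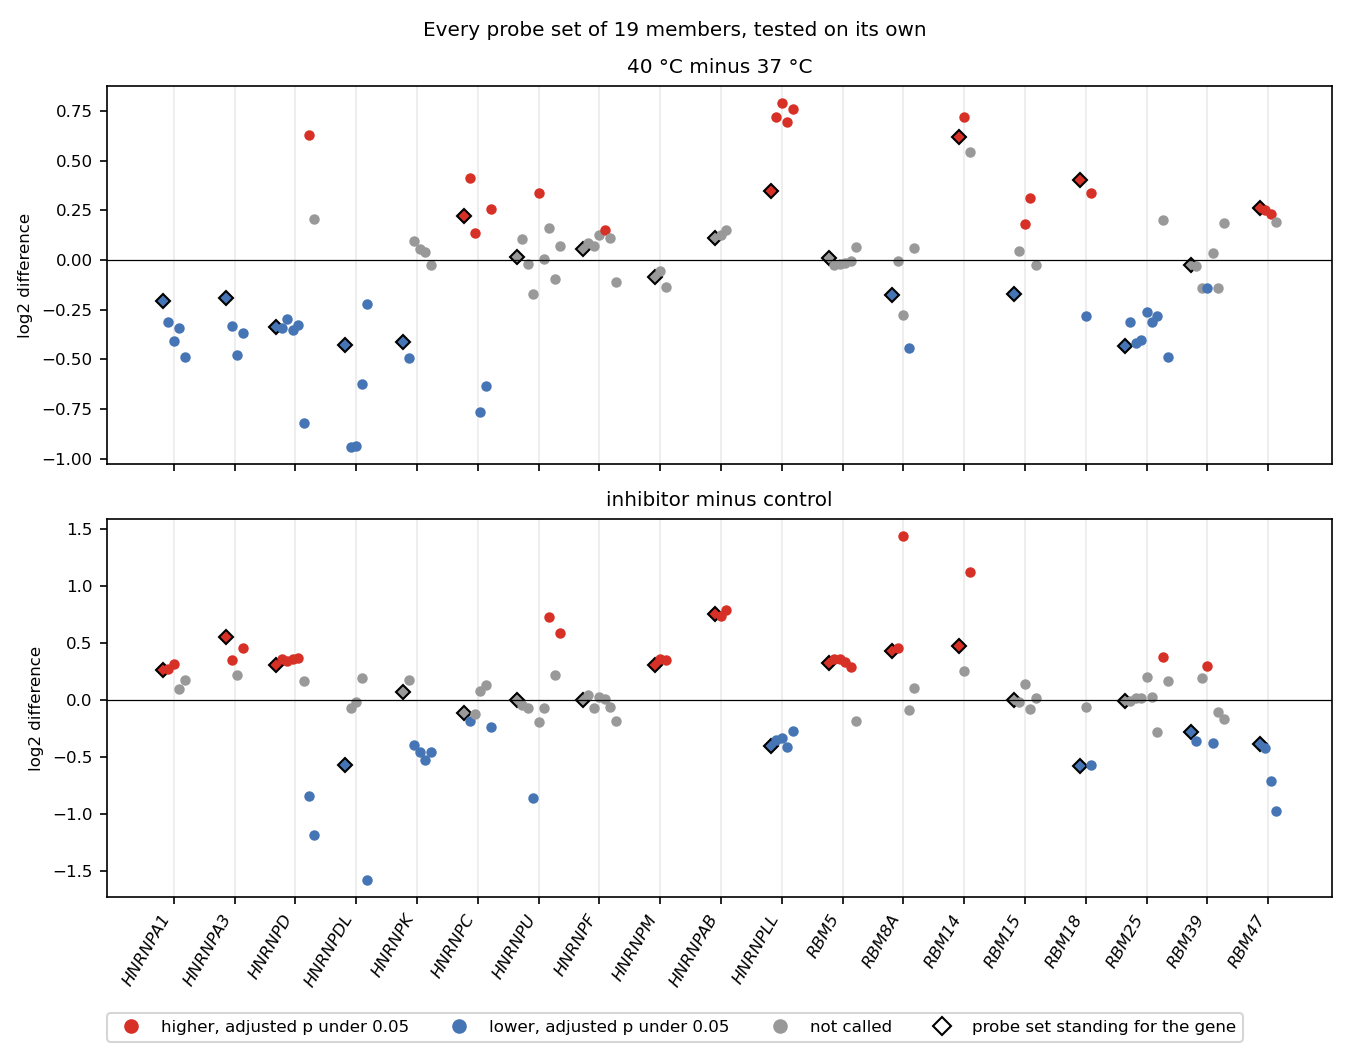
Log2 difference of every tested probe set of 19 members at 40 °C (top) and with the inhibitor (bottom), each point 1 probe set, red for higher and blue for lower at an adjusted p under 0.05, with a diamond on the probe set that stands for the gene. All 5 points of HNRNPA1, HNRNPDL and HNRNPLL lie on 1 side of 0 at 40 °C, whereas those of HNRNPC and HNRNPK split.

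Genes that work with these proteins gave the following counts, to be read beside 21.6% higher and 17.7% lower of all genes at 40 °C and 25.6% and 19.6% with the inhibitor. Among 21 other splicing regulators, 3 were higher and 9 lower at 40 °C, the lower ones including PSPC1, a paraspeckle protein like RBM14 (−0.64), and PTBP3 (−0.48). With the inhibitor 7 were higher and 3 lower, with TARDBP at 0.71. Among 34 core spliceosome genes, 11 were higher and 5 lower at 40 °C, and 6 and 5 after centring on array medians. In that list SF3A1 was higher (0.51) and DDX46 lower (−0.59). With the inhibitor 18 of the 34 were higher and 3 lower, SF3B3 (0.89) and SNRNP200 (0.78) being the largest of those named. Of 6 hnRNP proteins with other symbols, 2 were higher and 1 lower at 40 °C, and PTBP1 was the 1 called with the inhibitor (0.32).

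Of 9 exon junction and nonsense-mediated decay genes, 1 was higher and 2 lower at 40 °C, among them MAGOH, the partner of RBM8A (−0.22). With the inhibitor 6 were higher and 2 lower. The lower ones include MAGOHB (−0.51), against the rise of RBM8A. Of 5 m6A writer genes tested, METTL3, the catalytic subunit, was higher at 40 °C (0.61), and METTL14 (−0.31) and WTAP (−0.20) were lower. With the inhibitor WTAP was higher (0.34) and CBLL1 lower (−0.31). These lists were described by counts alone. With the spike covariate, the inhibitor calls of the genes named from these lists were also lost, at adjusted p from 0.0903 for SF3B3 to 0.459 for CBLL1. At 40 °C, WTAP was the 1 named gene to lose its call (adjusted p = 0.0927).

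The 9 members under the filter were HNRNPA1L2, HNRNPCL1, HNRNPCL2, RBM11, RBM14-RBM4, RBM20, RBM34, RBM44 and RBM46. The 6 symbols with no probe set of their own were HNRNPA1P10, HNRNPA3P1, HNRNPCL3, HNRNPCL4, HNRNPH2 and HNRNPUL2-BSCL2, and they were not analysed here.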

How the data were processed

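The authors deposited 1 table of log2 expression values of 49395 probe sets on 12 PrimeView arrays. Its unit was inferred from the range of the values; how the authors corrected, normalized and summarised the scans is not given in the sources used here. Symbols came from the platform's gene table: 44994 had 1 symbol, 1832 several and 2473, besides 102 controls, none. Both comparisons were fitted apart on all 13909 genes with limma 3.58.1 in R 4.3.3 (lmFit, eBayes, 4 residual degrees of freedom), two-sided, with Benjamini-Hochberg adjustment and a threshold of 0.05. Exact permutation of 3 arrays against 3 cannot go below p = 0.1 and was not used. Folds are ratios computed from differences of mean log2 values. The number of arrays limits the precision. Values of every array are given for the 6 largest called increases and decreases per comparison without overlap, up to 8 members called in both, and 18 fixed members. Members, gene lists and this rule were chosen with earlier results of these data known. Alternatives were a joint fit, a replicate block, other filters, probe set rules and scalings, trend and robust eBayes, array weights, a spike covariate and leaving out each array. The procedure was tested on simulated data. Promoters were read from RefSeq with Python 3.11.15 and pandas 2.3.3, and figures drawn with matplotlib 3.10.9.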

Additional observations from a re-analysis of the deposited data

How the results depend on the processing

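The member counts kept within 1.5 times under a joint fit, either filter, the mean of probe sets, both scalings, trend and robust eBayes and array weights. With the poly-A spike covariate the members called were 7 higher and 7 lower at 40 °C and 0 and 0 with the inhibitor, and the genes called 1220 and 1453, and 52 and 184. With every probe set on its own, 18 members had at least 1 lower with the inhibitor. Array weights gave 5526 genes higher with the inhibitor. Leaving out 1 array gave 9 to 11 members higher and 11 to 15 lower at 40 °C and 14 to 19 higher and 9 to 11 lower with the inhibitor, and for genes 2444 to 2778, 2037 to 2406, 2805 to 4025 and 2207 to 2935. The replicate numbers share no culture in the labels. Deviations of same-numbered arrays from their group means correlated at −0.13, −0.10 and 0.23 in the temperature experiment. In the inhibitor experiment they correlated at −0.19, −0.60 and −0.15. For arrays with different numbers these correlations ran from −0.28 to 0.33 and from −0.36 to 0.46. With the replicate block 10 members were higher and 13 lower at 40 °C, and 14 and 10 with the inhibitor, with 2711 and 2247 genes, and 2580 and 2199. The calls lost there were, at 40 °C, HNRNPUL1, RBM15, RBM15B, RBM33 and RBM7 (adjusted p 0.0536 to 0.083) and, with the inhibitor, HNRNPD, RBM12, RBM15B, RBM19, RBM28, RBM6 and RBM7 (0.0546 to 0.108). Among the 31 members given by array, signs turned with the mean of probe sets for HNRNPA2B1 (−0.29), HNRNPC (−0.062) and RBM15 (0.067) at 40 °C and for HNRNPD (−0.017), HNRNPK (−0.27) and RBM27 (−0.26) with the inhibitor, and with the spike covariate for HNRNPD (−0.038). Of the other called members, the mean of probe sets turned HNRNPUL1 (0.016) and RBM33 (−0.042) at 40 °C. Of the checks on the 31 members given by array, 984 kept direction and side of the threshold, 46 lost the call, 17 gained it and 7 reversed. Quantile normalization moved the median of all genes with the inhibitor from 0.09 to 0.11. The causes were not tested.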
